A study of Homo sapiens with 18 samples.

Results

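The DNA replication genes described here are 48 named genes of the machinery that licenses, starts and carries out DNA synthesis, and all 48 are listed in both comparison tables of the series. They were taken by symbol, and the tables list 14888 genes for H33 and 14896 for H12. The series holds 18 poly-A RNA libraries of cultured human liver cancer lines, 6 each for H33, H12 and HepG2. H33 and H12 carry the genotype label DNAJB1-PRKACA, the fusion found in fibrolamellar carcinoma, and are described as clones of HepG2. HepG2, labelled WT, is a hepatoblastoma line and served as control. All 3 lines were kept in the same medium and carry the same cell type label, and no agent was added to any of them according to the labels. Each engineered line is a single clone, so fusion and clone cannot be told apart. The question set by the design is which genes differ between each clone and HepG2. The values are 1 row per gene and comparison, so the spread between single libraries and their depth are unknown, and the labels call the 6 samples of a line biological replicates without saying whether they were separate cultures. P-values therefore measure the spread between these samples, which may be technical.

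Replication starts at origins bound by the origin recognition complex (ORC). CDC6 and CDT1 load the MCM2 to MCM7 ring there as an idle helicase, which the kinases CDC7 and CDK2 switch on by letting CDC45 and the GINS complex join it. Primase and DNA polymerase alpha then lay down primers, the RFC clamp loader places the PCNA ring, and polymerases epsilon and delta copy the strands. Most of these genes are known targets of the E2F factors, and dividing hepatoma cells use them in every cell cycle, whereas resting hepatocytes hold most of them low.

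Before the results, the lines were set against their labels. PRKACA, the kinase part of the fusion, rose in the authors' deposited tables by 2.15 (H33) and 2.07 (H12) on the log2 scale, which does not separate fusion reads from those of the intact gene. DNAJB1 stood at -0.20 in H33 and -0.25 in H12, with adjusted p of 5.09e-08 and 0.0609 by edgeR in the authors' deposited tables. All 16 hepatocyte markers examined were lower in both clones than in HepG2. Their summed implied level was 126 CPM (read counts scaled to library size) in H33 and 1108 CPM in H12, against 68280 CPM in HepG2. The albumin gene ALB stood at -9.90 in H33 and -5.92 in H12 in the authors' deposited tables, and the hepatocyte factor HNF4A at -8.79 and -5.96. The clones thus lack most of the liver expression that the shared hepatoblastoma label would call for. That H33 and H12 derive from HepG2 rests on the labels alone and was not tested, so each change over HepG2 is a difference between lines as labelled. Of 10 genes each for fibroblasts, endothelium and leukocytes, 4 each are listed in both tables, while DCN, LUM, PECAM1, VWF, PTPRC and CD3E are among those not listed. The summed level of the listed ones was 1445 CPM in H33, 1193 CPM in H12 and 10.3 CPM in HepG2 for fibroblast genes, and 40.8, 33.9 and 19.003 CPM for endothelial genes in the same order. For leukocyte genes it was 183 CPM in H33, 188 CPM in H12 and 3198 CPM in HepG2. The part that these markers have in the results below was not tested.

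Replication genes did not move as a block in either clone: some were above HepG2 and others below it, more of them above, and members of the same complex went opposite ways. In the authors' deposited table for H33, 26 of 48 were higher and 21 lower at an adjusted p under 0.05, with MCM4 the exception. Of all listed genes 44.2% were called higher and 45.3% lower in that table, 89.6% in either direction. In the authors' deposited table for H12, 25 of 48 were higher and 15 lower, beside 41.8% and 44.3% of all listed genes, 86.0% in either direction. So many genes differ between the lines that the number called says little about replication genes, and the size and direction of each change carry more. Among genes with a mean log2 CPM at or above the lowest of the 48, 91.4% were called in H33 and 84.7% in H12. Changes were moderate: the median absolute log2 fold change of the 48 was 0.62 in H33 and 0.59 in H12, against 0.62 and 0.60 for all genes at or above that level. A change of at least 2-fold was found for 10 of 48 in H33 (7 higher, 3 lower) and 9 of 48 in H12 (6 higher, 3 lower), where 44.5% and 44.1% of all listed genes reached it, and 32.2% and 31.7% of genes at or above the level of the lowest of the 48. The signed median of the 48 was 0.25 in H33 and 0.30 in H12, against -0.02 and -0.03 over all listed genes. In bulk RNA, a change in the share of cells in S phase and a change in RNA per cell cannot be told apart.

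**Figure D1:**
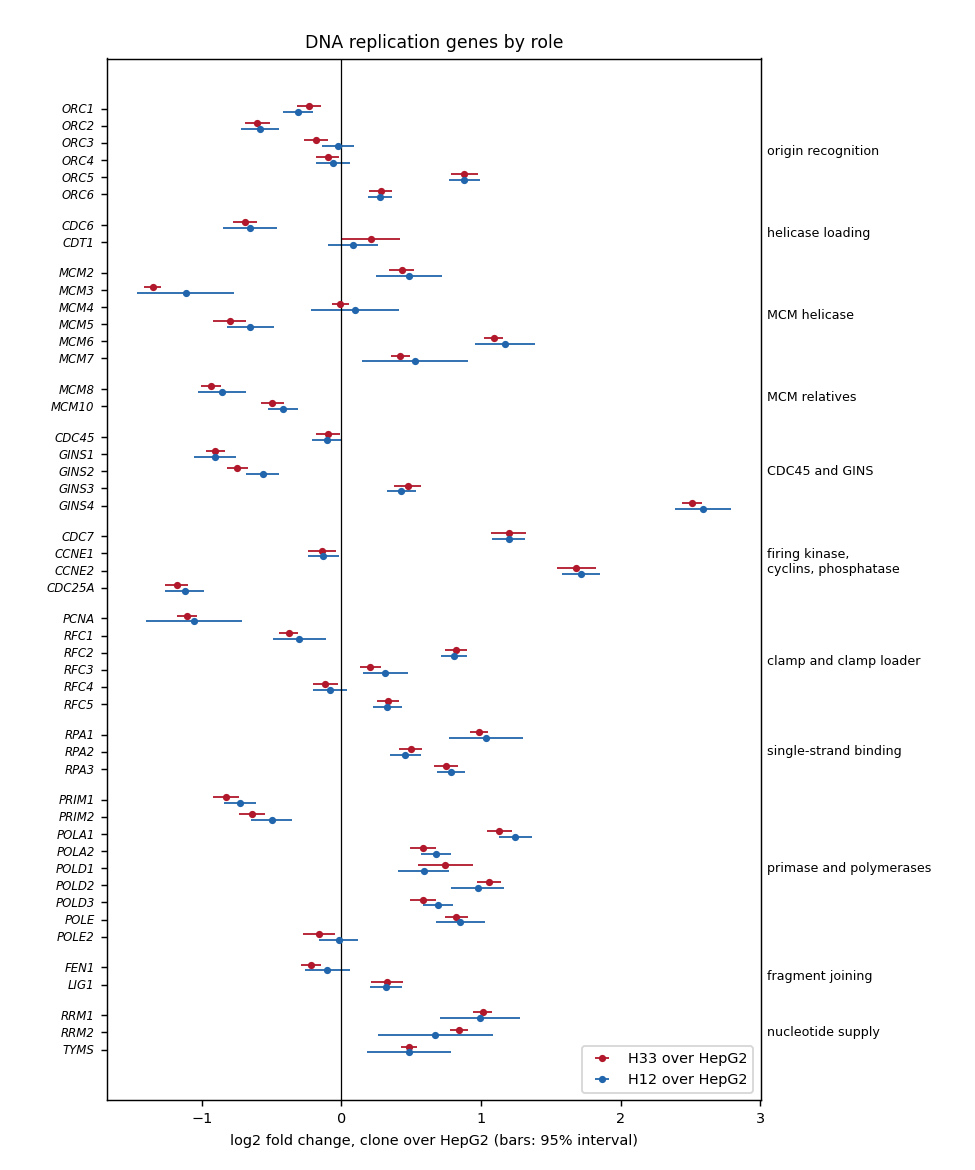
Log2 fold change of each replication gene (x axis) in H33 and H12 over HepG2, grouped by role down the page. Points are the authors' values and bars the 95% intervals from the implied standard errors. GINS4 and CCNE2 lie farthest to the right in both clones, and MCM3, CDC25A and PCNA farthest to the left.

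The values used for levels are implied ones, worked out row by row from mean CPM and log2 fold change, and the SE after a fold change is implied by that fold change and its likelihood ratio. HepG2 levels are those of the H33 table, and the H12 table gave levels within 0.912% of them for all 48 genes. GINS4, a subunit of the GINS complex, changed most, with an implied 222 CPM in H33 and 234 CPM in H12, against 38.9 CPM in HepG2. Next came CCNE2, the second E-type cyclin, with 26.6 CPM in H33 and 27.2 CPM in H12, against 8.30 CPM in HepG2. At the other end stood the helicase subunit MCM3, with 174 CPM in H33 and 206 CPM in H12, against 444 CPM in HepG2. CDC25A, the phosphatase that activates CDK2, had 30.0 CPM in H33 and 31.5 CPM in H12, against 68.0 CPM in HepG2. Levels of both clones lay on the same side of HepG2 for each of these 4 genes, as the plot of implied levels shows.

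**Figure D2:**
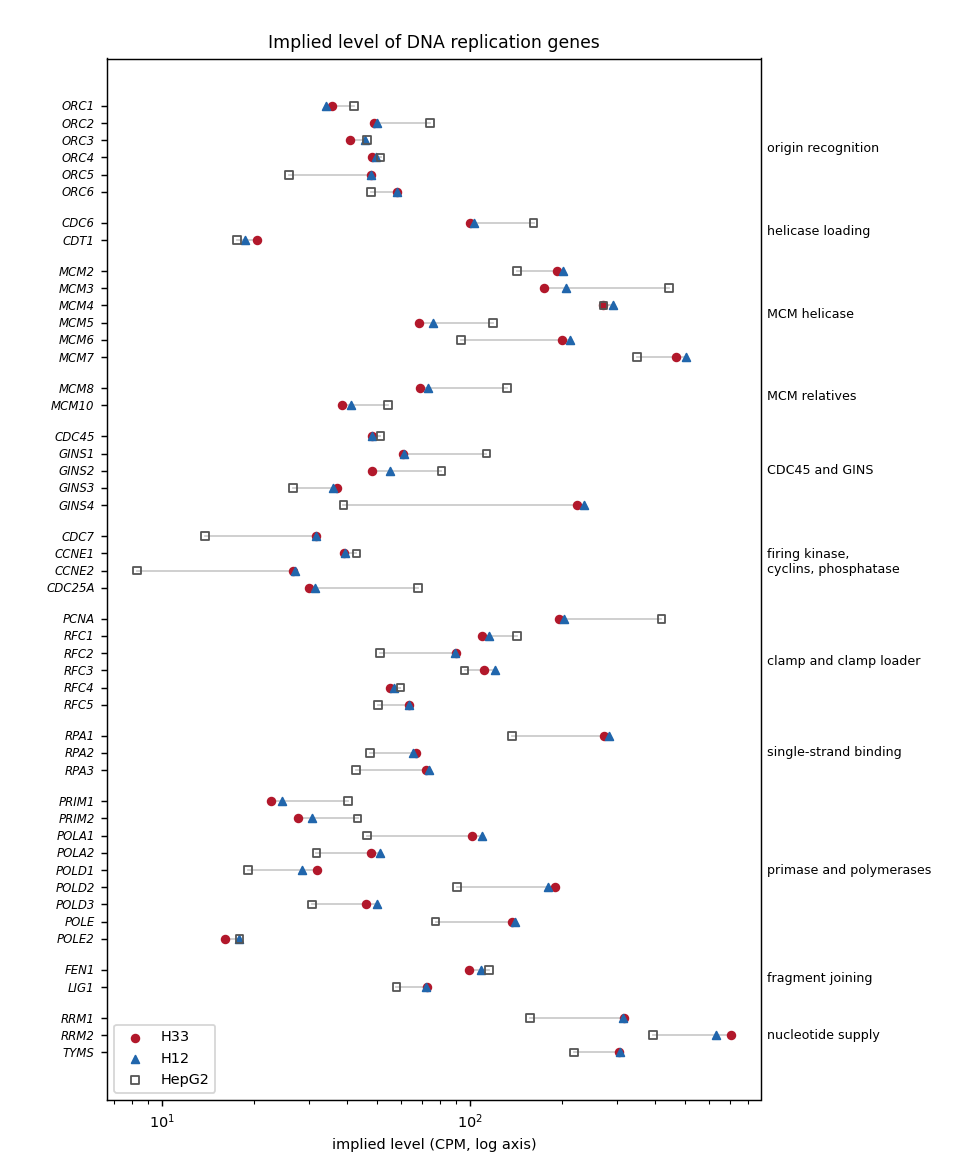
Implied level in CPM (log axis) of each replication gene in H33, H12 and HepG2, grouped by role. For most genes the symbols of both clones lie side by side and apart from the open HepG2 square. GINS4 stands at 222 and 234 CPM in the clones against 38.9 CPM in HepG2.

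To show what stands in front of genes that went opposite ways, sequence before the RefSeq start of 6 genes is given: CDC7, POLA1 and MCM6, which have the highest mean change over both clones after GINS4 and CCNE2, and MCM3, CDC25A and PCNA, which have the lowest. They are RefSeq sequences on GRCh38.p14, written 5′ to 3′ on the strand of the gene, from 250 bases before that start up to it or to the edge of the gene in GENCODE 29, where that comes first. This leaves out 139 bases for MCM3 and 4 for PCNA, and capitals mark matches to an E2F motif on either strand.
CDC7 (chr1:91500601-91500850, plus strand): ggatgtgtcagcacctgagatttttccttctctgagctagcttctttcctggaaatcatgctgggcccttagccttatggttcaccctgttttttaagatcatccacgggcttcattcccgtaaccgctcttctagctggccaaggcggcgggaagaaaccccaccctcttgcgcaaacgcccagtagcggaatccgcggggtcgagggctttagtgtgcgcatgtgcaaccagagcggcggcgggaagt
POLA1 (chrX:24693668-24693917, plus strand): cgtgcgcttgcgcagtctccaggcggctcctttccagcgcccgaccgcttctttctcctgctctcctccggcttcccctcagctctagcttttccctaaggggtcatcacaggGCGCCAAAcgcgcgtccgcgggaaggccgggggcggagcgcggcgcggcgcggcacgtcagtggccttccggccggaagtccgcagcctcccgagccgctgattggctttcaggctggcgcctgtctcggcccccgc
MCM6 (chr2:135876444-135876693, minus strand): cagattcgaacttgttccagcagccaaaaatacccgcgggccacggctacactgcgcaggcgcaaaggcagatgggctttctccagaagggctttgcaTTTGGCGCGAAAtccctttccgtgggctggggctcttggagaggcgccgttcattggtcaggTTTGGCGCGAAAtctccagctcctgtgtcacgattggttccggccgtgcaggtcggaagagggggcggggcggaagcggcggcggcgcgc
MCM3 (chr6:52284882-52284992, minus strand): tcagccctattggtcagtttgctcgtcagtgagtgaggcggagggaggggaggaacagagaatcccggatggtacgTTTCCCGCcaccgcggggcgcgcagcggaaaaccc
CDC25A (chr3:48188418-48188667, minus strand): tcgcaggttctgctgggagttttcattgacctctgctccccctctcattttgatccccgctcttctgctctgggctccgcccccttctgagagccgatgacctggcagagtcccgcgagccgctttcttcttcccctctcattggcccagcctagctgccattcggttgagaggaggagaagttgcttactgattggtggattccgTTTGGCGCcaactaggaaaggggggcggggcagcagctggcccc
PCNA (chr20:5126627-5126872, minus strand): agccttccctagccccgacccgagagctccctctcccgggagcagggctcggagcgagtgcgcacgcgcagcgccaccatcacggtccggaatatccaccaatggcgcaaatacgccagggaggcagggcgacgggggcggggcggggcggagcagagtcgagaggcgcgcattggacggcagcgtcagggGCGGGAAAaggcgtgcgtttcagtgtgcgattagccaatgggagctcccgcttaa
The E2F motif was searched as TTTCCCGC, TTTCGCGC, TTTGCCGC or TTTGGCGC. RefSeq windows of 250 bases were used for 41 of the 48 genes. MCM4, MCM5, GINS4, CCNE2, RPA2, RPA3 and POLD3 are not among the 41. The shares below therefore leave out GINS4 and CCNE2, which changed most. Of the 41 windows, 33 reach into the gene as GENCODE 29 draws it, by 68 bases at the median over all 41. An E2F match is held by 14 of the 41 (34.1%), against 2.78% of 27326 windows over all genes. A match was found for 8 of 20 genes higher in both clones and for 4 of 14 lower in both. CCAAT, on either strand, was found for 24 of 41 (58.5%), against 33.05% of all windows: 10 of 20 higher in both and 12 of 14 lower in both. TTTGAA, the core of the CHR element of mitotic promoters, was found in 1 of the 41 windows (2.44%), that of RRM1, against 13.6% of all windows. No E2F match of the 41 windows overlapped a match to either of the other motifs. In MCM6, which rose, each of 2 stretches holds matches on both strands that overlap, and MCM3, CDC25A and PCNA, which fell, hold 1 match each. POLA1, which rose, holds 1 match, and the window of CDC7 holds none of these letters. These letters describe the windows and do not show that a factor binds there.

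Origin recognition genes split. ORC5 (ENSG00000164815) had an implied 47.8 CPM in H33 and 47.8 CPM in H12, against 25.95 CPM in HepG2, a rise of 0.88 (SE 0.05) and 0.88 (SE 0.06) in the authors' deposited tables. ORC6, needed to recruit MCM rings, rose by 0.28 (SE 0.04) in each of the authors' deposited tables. ORC2, a core subunit, had 48.9 CPM in H33 and 49.9 CPM in H12, against 74.3 CPM in HepG2, and stood at -0.60 (SE 0.05) and -0.58 (SE 0.07) in the authors' deposited tables. ORC1, the subunit whose level follows the cell cycle, was lower by a smaller step, at -0.23 and -0.31 in the authors' deposited tables. ORC3 and ORC4 were called lower in H33 (-0.18 and -0.10) and not in H12 (-0.02 and -0.06, adjusted p by edgeR of 0.703 and 0.368 in the authors' deposited table). Of the genes that load the helicase, CDC6 fell, with 99.99 CPM in H33 and 103 CPM in H12, against 161 CPM in HepG2. Its partner CDT1 stood at 0.21 (SE 0.11, adjusted p = 0.0478 by edgeR) for H33 in the authors' deposited tables, and for H12 at 0.09 (SE 0.09, adjusted p = 0.374).

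The 6 subunits of the MCM ring, which assemble in equal number, spread from -1.35 to 1.09 in H33 and from -1.12 to 1.17 in H12. MCM6 (ENSG00000076003) had 200 CPM in H33 and 212 CPM in H12, against 93.7 CPM in HepG2, and rose by 1.09 (SE 0.04) and 1.17 (SE 0.11) in the authors' deposited tables. MCM2 and MCM7 rose less, by 0.43 and 0.42 in H33 and by 0.49 and 0.52 in H12 in the authors' deposited tables. MCM4 was not called in either clone in the authors' deposited tables, at -0.01 (SE 0.03) in H33 and 0.10 (SE 0.16) in H12. MCM5 fell to an implied 68.4 CPM in H33 and 76.3 CPM in H12, against 119 CPM in HepG2. MCM3 (ENSG00000112118) had the lowest values, -1.35 (SE 0.03) and -1.12 (SE 0.18) in the authors' deposited tables, with an adjusted p by edgeR listed as 0 in H33 and of 5.34e-10 in H12. The ring genes thus gave 3 higher, 2 lower and 1 not called in each clone. Both MCM relatives were lower: MCM8, a helicase that works with MCM9 in recombination, at -0.94 in H33 and -0.86 in H12, and MCM10, which helps to activate the helicase, at -0.49 and -0.42 in the authors' deposited tables.

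GINS and CDC45 complete the active helicase. GINS4 rose in H33 by 2.51 (SE 0.04) and in H12 by 2.59 (SE 0.10) in the authors' deposited tables, 571% and 601% of the HepG2 level. GINS3 rose by 0.48 and 0.43 in the authors' deposited tables. Its partners fell: GINS1 had 60.7 CPM in H33 and 61.0 CPM in H12, against 113 CPM in HepG2, and GINS2 had 48.3 CPM in H33 and 55.2 CPM in H12, against 81.0 CPM in HepG2. The 4 subunits of this complex therefore lay 3.42 log2 units apart in H33 and 3.49 in H12, the widest span of the 11 roles in both clones. CDC45 stood at -0.09 (SE 0.04, adjusted p = 0.0385 by edgeR) for H33 in the authors' deposited tables, and for H12 at -0.10 (SE 0.06, adjusted p = 0.0795).

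Among the genes that trigger firing, CDC7, the kinase that phosphorylates the MCM ring, had 31.8 CPM in H33 and 31.7 CPM in H12, against 13.8 CPM in HepG2. The rise was 1.20 for H33 (SE 0.07) and 1.20 for H12 (SE 0.06) in the authors' deposited tables. The E-type cyclins differed from each other: CCNE2 rose by 1.68 (SE 0.07) and 1.72 (SE 0.07), while CCNE1 was lower by a small step, -0.14 (SE 0.05) and -0.13 (SE 0.06), in the authors' deposited tables. The call of CCNE1 in H12 has an adjusted p of 0.0285 by edgeR in the authors' deposited table. CDC25A fell, at -1.18 for H33 (SE 0.04) and -1.12 for H12 (SE 0.07) in the authors' deposited tables.

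The sliding clamp PCNA (ENSG00000132646), on which the polymerases ride, had 195 CPM in H33 and 203 CPM in H12, against 420 CPM in HepG2. Its change was -1.11 for H33 (SE 0.04) and -1.06 for H12 (SE 0.17) in the authors' deposited tables. The 5 subunits of its loader did not all follow it. RFC2 rose by 0.82 and 0.81, RFC5 by 0.33 and 0.33 and RFC3 by 0.21 and 0.32 in the authors' deposited tables, H33 before H12. The large subunit RFC1 was lower, at -0.38 in H33 and -0.30 in H12, and RFC4 stood at -0.12 and -0.08, called in H33 alone in the authors' deposited tables. All 3 subunits of RPA, which coats single-stranded DNA, rose in both clones: RPA1 by 0.99 and 1.03, RPA3 by 0.75 and 0.78, and RPA2 by 0.50 and 0.46 in the authors' deposited tables. RPA1 had 272 CPM in H33 and 283 CPM in H12, against 137 CPM in HepG2.

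Primase and polymerase genes parted by subunit. PRIM1, the catalytic subunit of primase, fell to 22.7 CPM in H33 and 24.6 CPM in H12, against 40.3 CPM in HepG2, and the regulatory subunit PRIM2 to 27.7 CPM in H33 and 30.8 CPM in H12, against 43.3 CPM in HepG2. The polymerase alpha subunits with which they form 1 complex rose. POLA1, the catalytic subunit, had 102 CPM in H33 and 110 CPM in H12, against 46.3 CPM in HepG2, and POLA2 rose by 0.59 and 0.68 in the authors' deposited tables. The 3 polymerase delta genes rose as well: POLD2 by 1.06 (SE 0.04) and 0.98 (SE 0.10), the catalytic subunit POLD1 by 0.75 (SE 0.10) and 0.59 (SE 0.09), and POLD3 by 0.58 and 0.69 in the authors' deposited tables. For polymerase epsilon, POLE, the catalytic subunit, had 137 CPM in H33 and 140 CPM in H12, against 77.5 CPM in HepG2. POLE2 stood at -0.16 (SE 0.06) in H33 and -0.02 (SE 0.07, adjusted p = 0.810 by edgeR) in H12 in the authors' deposited tables.

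Enzymes that finish the lagging strand changed little. LIG1, the ligase that seals Okazaki fragments, rose by 0.33 and 0.32 in the authors' deposited tables, and FEN1, the flap nuclease, stood at -0.22 in H33 and -0.10 in H12, called in H33 alone. All 3 nucleotide supply genes rose. RRM1, the large subunit of ribonucleotide reductase, had 317 CPM in H33 and 314 CPM in H12, against 157 CPM in HepG2. Its small subunit RRM2 had 705 CPM in H33 and 630 CPM in H12, against 393 CPM in HepG2, and the thymidylate synthase gene TYMS had 306 CPM in H33 and 307 CPM in H12, against 219 CPM in HepG2. The rise of RRM2 in H12 was 0.67 (SE 0.21, adjusted p = 0.00160 by edgeR) in the authors' deposited table.

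Differences between the clones were small, and how many passed a test depended on the treatment of the shared HepG2 libraries. H33 minus H12 was tested through both tables over 14765 shared genes, and 5.40% of these passed after Benjamini-Hochberg adjustment, but 0 of the 48. With a correlation of 0.5 allowed between both fold changes for the shared HepG2 libraries, 11.0% of all shared genes passed and 2 of the 48, GINS2 (adjusted p = 0.00728) and ORC3 (adjusted p = 0.0330). The value of 0.5 was assumed, not estimated. It suits errors of equal size in both comparisons, and may be too large where those of H12 are wider. Without it, at an unadjusted p under 0.05 there were the same 2 genes, GINS2 (-0.18, 95% interval -0.32 to -0.04) and ORC3 (-0.16, -0.30 to -0.01). Differences lay between -0.24 (MCM3) and 0.17 (RRM2), and the 95% interval stayed within 0.5 log2 units of 0 for 46 of 48. The exceptions were MCM3, with an interval from -0.59 to 0.12, and RRM2, from -0.25 to 0.58, which rest on the wide errors of H12. The implied SE was larger in H12 than in H33 for 44 of 48 genes, 1.47 times at the median and 6.31 times at most, against 1.12 times at the median of all shared genes. Over hepatocyte markers the median SE was 0.08 in H33 and 1.43 in H12, and the part of those wide errors in the results of H12 was not tested. Both comparisons use the same HepG2 libraries, so that their likeness is no independent support. Of the 7 genes called in H33 alone, ORC4, CDT1, CDC45, RFC4, POLE2 and FEN1 are not shown to differ between the clones by either calculation, and ORC3 differed only with the correlation.

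**Figure D3:**
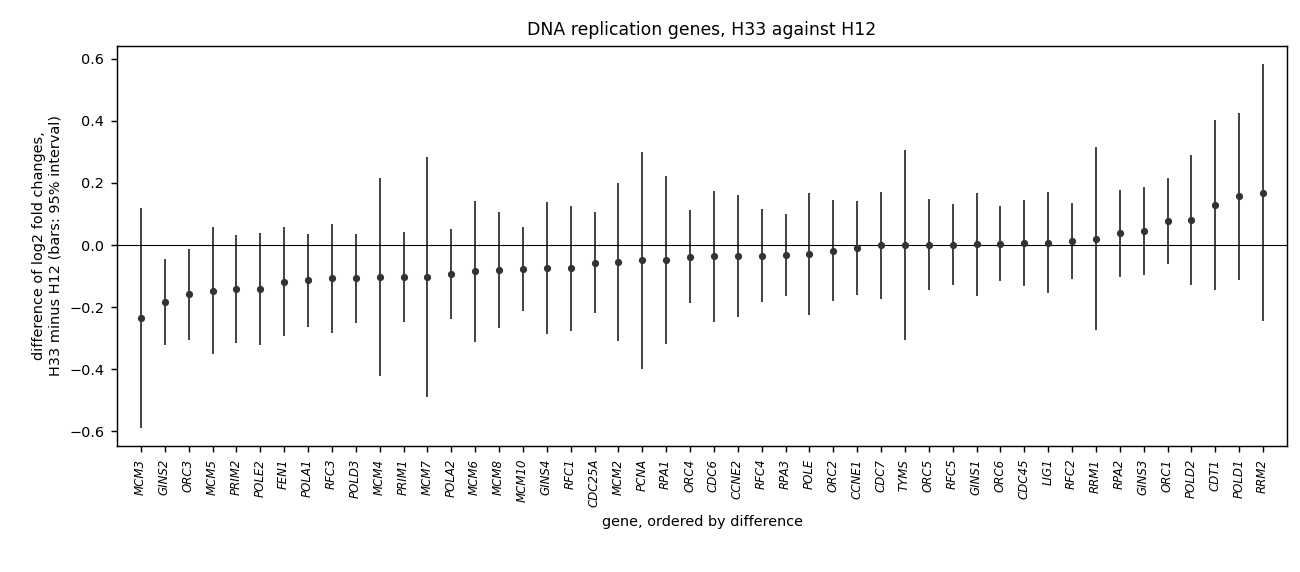
Difference between the log2 fold changes of H33 and H12 (y axis, H33 minus H12) for each replication gene, ordered by size, with 95% intervals as bars. Differences run from -0.24 to 0.17, and the intervals of GINS2 and ORC3 alone leave out 0.

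On chromosomes 7 and 20 every replication gene moved the same way as most other genes of that chromosome. All 5 replication genes of chromosome 7 (ORC5, MCM7, RFC2, RPA3 and POLD2) rose in both clones, with medians of 0.82 in H33 and 0.81 in H12. Of 543 other genes of chromosome 7 with at least 2 log2 CPM, 58.2% were higher in H33 and 56.4% in H12 in the authors' deposited tables. All 3 of chromosome 20 (PCNA, MCM8 and GINS1) fell in both clones, where 73.8% of 317 other genes were lower in H33 and 73.2% in H12. On chromosome 6, MCM3 and PRIM2 fell in both clones and ORC3 was called lower in H33 alone, with 65.5% of 559 other genes lower in H33 and 60.8% in H12. Chromosome 8 went otherwise: GINS4 and CCNE2 rose while the median of 363 other genes was -0.27 in H33 and -0.25 in H12. It was not alone in this. Medians of replication genes and of other genes also lay on opposite sides of 0 on chromosomes 2, 10, 13, 14, 16, 17 and 18. This held in both clones, though 10, 13, 14 and 18 hold 1 replication gene each. Chromosomes 6, 7, 8 and 20 were singled out after their values were seen.

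Nearest neighbours gave a closer view. The 20 genes of at least 2 log2 CPM nearest to MCM3 (GRCh38 chromosome 6, 52264009 to 52284881, minus strand) had a median of -1.21 in H33 and -1.11 in H12, and 17 and 16 of them were lower. Around GINS1 (chromosome 20, 25407727 to 25452628, plus strand) the neighbour medians were -1.45 and -1.35, with 19 of 20 lower in each clone. Near POLD2 (chromosome 7, 44114681 to 44124358, minus strand) they were 0.89 and 0.76, with 15 of 20 higher in each. GINS4 (chromosome 8, 41529206 to 41545046, plus strand) lay far above its neighbours, whose medians were 0.42 in H33 and 0.51 in H12. CCNE2 (chromosome 8, 94879770 to 94896678, minus strand) and MCM6 (chromosome 2, 135839626 to 135876426, minus strand) rose where neighbours were lower, with medians of -0.34 and -0.45 in H33 and -0.30 and -0.48 in H12. LIG1 and POLD1 on chromosome 19 rose by less than their neighbours, whose medians were 1.31 and 1.21 in H33 and 1.18 and 1.07 in H12. Across the 48 genes, Pearson's r between a gene's change and its neighbours' median was 0.53 in H33 and 0.54 in H12 (Spearman's rho 0.54 and 0.58), and gene and neighbours were on the same side of 0 for 38 and 36 of 48. Over 11380 genes at or above that level r was 0.17 in H33 and 0.18 in H12 (rho 0.33 and 0.32). Of these 11380 genes, 7353 in H33 and 7326 in H12 were on the same side of 0 as their neighbours. These are descriptions across genes, which are not independent: all share the same libraries, and 3 of the 48 have another of the 48 among their neighbours. The part of neighbouring position in the changes of these genes was not tested.

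**Figure D4:**
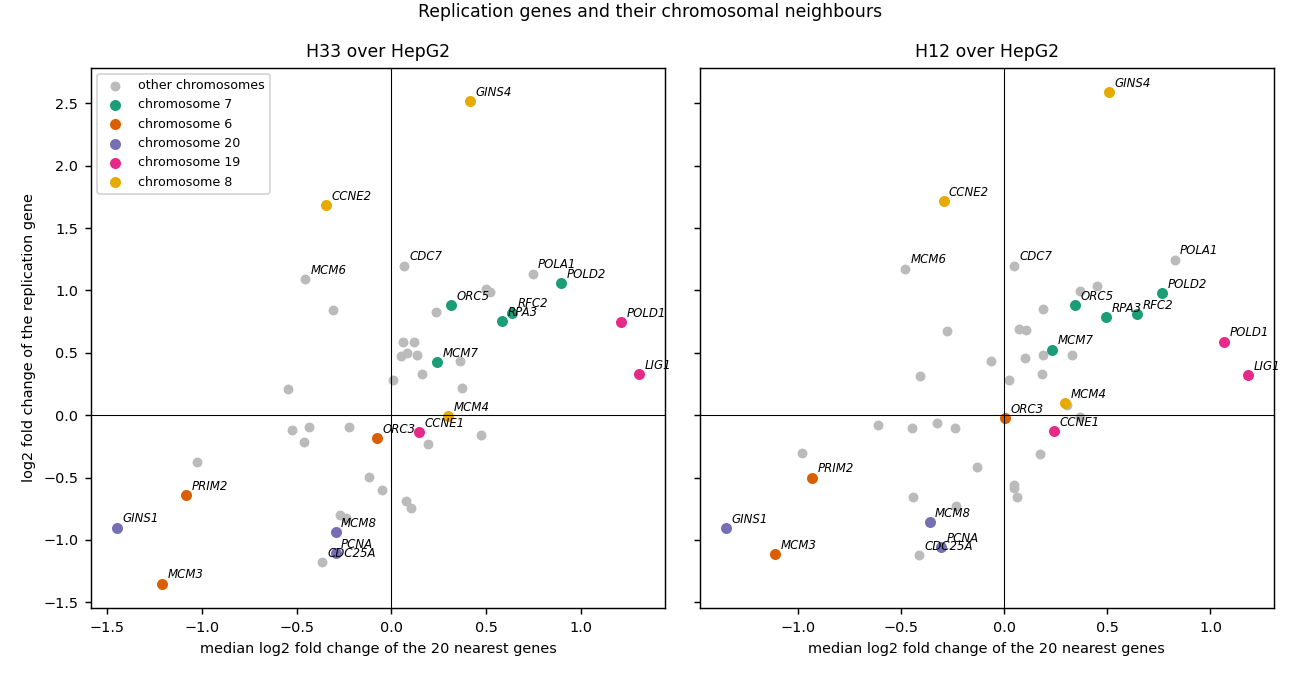
Log2 fold change of each replication gene (y axis) against the median log2 fold change of its 20 nearest genes on the chromosome (x axis), for H33 and H12 over HepG2. Colours mark 5 chromosomes. Genes of chromosome 20 lie in the lower left, those of chromosome 7 in the upper right, and GINS4 and CCNE2 above all others.

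Other genes of the pathway also went both ways, as did the listed genes at large. For H33, 44.2% of all listed genes were called higher against 45.3% lower. For H12 the shares were 41.8% against 44.3%. A split by itself therefore sets none of these lists apart. In H33, 15 of 30 further replication factors were higher and 10 lower, while H12 had 15 higher and 11 lower, with medians of 0.12 and 0.23. GMNN, the inhibitor that holds CDT1 back after S phase begins, fell, at -1.88 for H33 (SE 0.04) and -1.73 for H12 (SE 0.08), in the authors' deposited tables, while POLD4, the smallest polymerase delta subunit, rose by 1.79 and 1.69. POLE3, a polymerase epsilon subunit, rose by 1.07 and 1.16, RNASEH2C, a subunit of the nuclease that removes RNA from DNA, by 1.03 and 1.04, and DBF4, the activator of CDC7, by 0.45 and 0.57 in the authors' deposited tables. In H33, 6 of 16 other nucleotide supply enzymes were higher and 10 lower, while H12 had 5 higher and 9 lower. The purine gene GMPS (1.27 and 1.26), the pyrimidine gene CAD (1.15 and 1.13) and the thymidine kinase TK1 (0.60 and 0.58) rose, while the deoxycytidine kinase DCK (-1.49 and -1.48) and the p53-inducible reductase subunit RRM2B (-0.80 and -0.70) fell in the authors' deposited tables.

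Regulators of replication genes went both ways too, a split shared by the listed genes at large. In H33, 13 of 29 E2F, RB and DREAM genes were higher and 15 lower, while H12 had 12 higher and 14 lower. E2F1, an activator of replication genes, fell, at -0.96 for H33 (SE 0.05) and -1.02 for H12 (SE 0.05), in the authors' deposited tables, and RB1, which restrains it, rose by 0.49 and 0.54. LIN54, the DNA-binding subunit of the DREAM complex, fell (-1.86 and -1.88), cyclin D3 (CCND3) rose (2.203 and 2.07), and cyclin D2 (CCND2) fell (-4.02 and -3.49) in the authors' deposited tables. CDKN2A, which encodes the CDK4 inhibitor p16, stood at -5.88 (SE 0.43) and -5.56 (SE 0.40) in the authors' deposited tables. CDKN1A, which encodes the CDK2 inhibitor p21, rose in H33 by 0.74 (SE 0.04) and in H12 by 0.39 (SE 0.08) in the authors' deposited tables. Most genes of the phases after replication rose: among 25 that act in G2 and mitosis, 23 rose in H33 and 2 were not called, while 22 rose in H12 and 3 were not called, with medians of 1.13 and 1.16. The proliferation antigen gene MKI67 rose in H33 by 1.13 (SE 0.04) and in H12 by 1.16 (SE 0.20) in the authors' deposited tables. CDC25B, CDC20, UBE2C and HMMR rose by between 1.70 and 2.55 in the authors' deposited table for H33. No test compared these lists with the 48 replication genes.

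**Figure D5:**
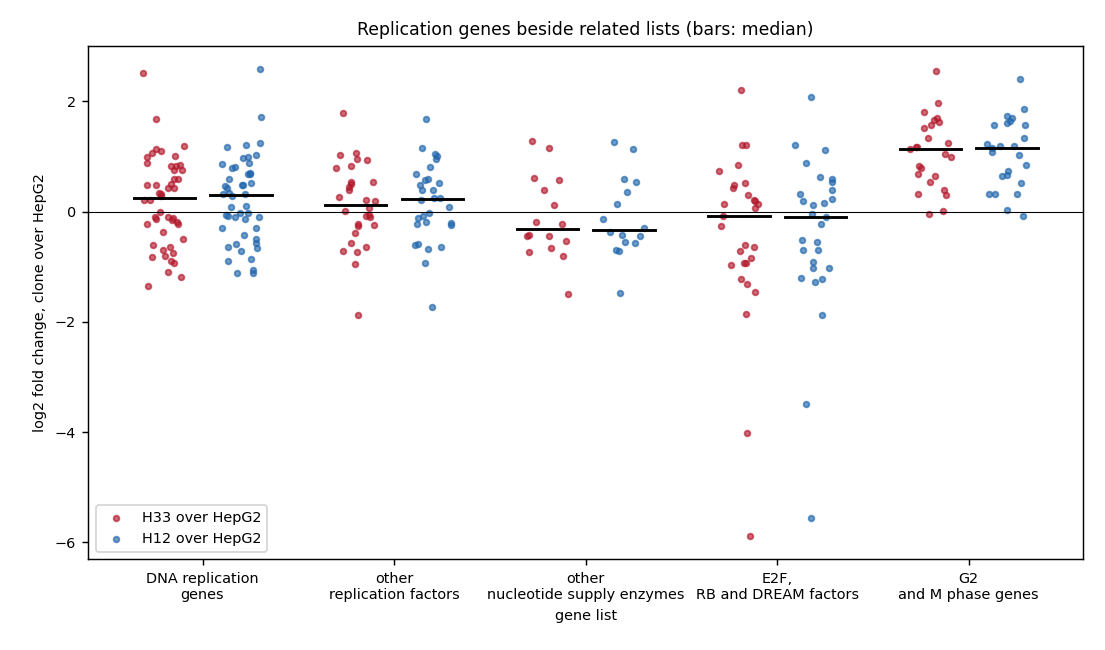
Log2 fold change over HepG2 (y axis) of the replication genes and of 4 related lists, with 1 point per gene and bars at the median, H33 left of H12. Replication genes lie on both sides of 0 with medians of 0.25 and 0.30, and G2 and M phase genes lie above 0 with medians of 1.13 and 1.16.

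Some of these values can hold reads of other genes, since the use of strand in counting is not given in the sources used here. In the annotation, 16 of the 48 genes overlap another gene of the tables. PRIM1 overlaps NACA on its own strand, a gene whose mean log2 CPM, not corrected for length, is higher by 3.78, and which stood at -0.18 in H33 and -0.17 in H12 in the authors' deposited tables. FEN1 overlaps FADS2 on its own strand (-2.42 and -2.34 in the authors' deposited tables). On the opposite strand, RFC4 overlaps EIF4A2, whose mean log2 CPM is higher by 3.13 and which was higher in the clones by 0.65 and 0.70, and CCNE2 overlaps INTS8 (0.30 and 0.35) and NDUFAF6 (-1.13 and -1.15) in the authors' deposited tables. TYMS overlaps ENOSF1, which was higher in the clones by 0.33 and 0.51 in the authors' deposited tables, with a mean log2 CPM of -3.01 relative to TYMS. GINS2, which fell, overlaps GSE1 (-1.11 and -1.12 in the authors' deposited tables), whose mean log2 CPM is higher by 0.05. RFC5, which rose, overlaps WSB2 (0.56 and 0.53 in the authors' deposited tables), whose mean log2 CPM is higher by 0.44. Copies named as pseudogenes exist for 8 of the 48, among them PCNA, RPA2 and RRM2 with 3 each, whose reads the counting could split. These overlapping genes were named after their values were seen.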

How the data were processed

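The labels' protocols describe poly-A RNA of 18 samples read on an Illumina NovaSeq instrument. Tools listed in the submitters' processing notes, without their roles, are edgeR 3.28.0, RSEM, STAR 2.5.3a and bcl2fastq 2.20.0.422, with the build GRCh38.p10. The authors deposited, per the file headers, a mean log2 CPM, a log2 fold change (clone over HepG2), a likelihood ratio (a score per gene) and a p-value with its adjusted p for each gene. Which filters, scaling and annotation the authors used is not given in the sources used here. Adjusting the deposited p-values anew by Benjamini-Hochberg moved none by more than 0.000152 in H33 or 0.000105 in H12.

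The tables hold no counts, so the authors' test stands in place of a count test, with a threshold of 0.05. The SE is the absolute fold change over the root of the likelihood ratio, and intervals are normal ones. Levels assume groups of equal size. The clones were compared by the difference over the root of the summed squared SEs, which shared controls make conservative. That test was tried on simulated data with known changes, over all shared genes. It recovered 18.7% of changes of 0.25 log2 units and 56.4% of those of 0.5, so small differences are often missed. The simulated errors of the clones were independent, so the shared HepG2 libraries were not modelled. Coordinates come from GENCODE 29 (GRCh38). Members and lists were chosen with earlier results of these data known; the naming rule takes every member and, per list, up to 4 genes called in both clones with the largest mean change, plus 11 set by name, and PRKACA and DNAJB1 check the labels. Of genes the rule takes, some are not named. Neighbour analyses were added after the data were seen. Software was matplotlib 3.10.9, pandas 2.3.3, numpy 2.4.6, Python 3.11.15 and scipy 1.17.1.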

Additional observations from a re-analysis of the deposited data

Results flagged for a closer look

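Of 41 genes outside the 48 that the naming rule takes, 7 passed the test of the difference between the clones, H33 minus H12, with Benjamini-Hochberg adjustment over 14765 shared genes. CDKN1A, which encodes the CDK2 inhibitor p21, was higher by 0.35 log2 units (SE 0.09, adjusted p = 0.00510) in H33 than in H12, above HepG2 in both clones. Among hepatocyte markers AFP differed by -10.81 (SE 1.48, adjusted p = 4.87e-11), AHSG by -5.90 (SE 1.54, adjusted p = 0.00395) and APOB by -4.92 (SE 1.58, adjusted p = 0.0360), and the SE of each is almost wholly that of H12. All 16 hepatocyte markers lay between -6.37 and -5.67 in H12, against -16.75 to -6.95 in H33. These marker differences thus rest on an H12 value that is nearly the same for every marker, and what sets it was not tested. The macrophage marker CD68 differed by 0.40 (SE 0.10, adjusted p = 0.00241), the endothelial receptor gene TIE1 by 0.99 (SE 0.30, adjusted p = 0.0189) and the collagen gene COL3A1 by 1.40 (SE 0.46, adjusted p = 0.0466).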

How the results depend on the processing

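Calls were recounted for all 48 genes at an adjusted p of 0.01, with the adjustment recomputed from the likelihood ratio, at a mean of at least 1 log2 CPM, with fold changes centred on the median of all genes and with Bonferroni adjustment, and stayed between 40 and 47 in H33 and between 33 and 40 in H12. When a 2-fold change was also required, 10 were left in H33 (7 higher, 3 lower) and 9 in H12 (6 higher, 3 lower), by construction. Centring turned the sign of 3 values near 0 that are not called, MCM4 in H33 (0.00931) and ORC3 (0.00350) and POLE2 (0.00967) in H12. With a correlation of 0.5 assumed between the fold changes of both clones, for their shared HepG2 libraries, 2 genes differed between H33 and H12, GINS2 (adjusted p = 0.00728) and ORC3 (adjusted p = 0.0330); under the other 4 alternatives the count was 0. With 10 or 40 neighbours, or neighbours of any level, r stayed between 0.45 and 0.48. No paired analysis was possible because the tables hold comparisons and no values per library; fits without single replicates could not be run for the same reason.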
